A study of Rattus norvegicus with 24 samples.

Results

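Matrix metalloproteinases are secreted or membrane-bound enzymes that cut collagens, elastin, laminins and other proteins of the extracellular matrix, and tissue inhibitors of metalloproteinases (Timps) block their active sites. The 5 genes described here are the gelatinases Mmp2 and Mmp9, the macrophage elastase Mmp12, the membrane-type enzyme Mmp14 and the inhibitor Timp1. They were taken by Ensembl gene ID from a table of 31998 genes: ENSRNOG00000016695 (Mmp2), ENSRNOG00000017539 (Mmp9), ENSRNOG00000030187 (Mmp12), ENSRNOG00000010947 (Mmp14) and ENSRNOG00000010208 (Timp1). All 5 had a row and enough counts to be tested, among 16661 such genes. Mmp12 had them through its overloaded libraries. Most matrix metalloproteinases are made as inactive precursors. Mmp14 sits on the cell surface and activates the Mmp2 precursor with the help of Timp2, while Timp1 inhibits most secreted family members but is weak against Mmp14. In skeletal muscle these enzymes are known for their part in remodelling the connective tissue around fibres during growth and repair.

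RNA was sequenced from plantaris, a plantar flexor of the calf, in female rats of 14 months and breeding generation 19. Selection had been for a small (LRT) or a large (HRT) response to endurance training. The groups were LRT overload, LRT control, HRT overload and HRT control, with 6 libraries each. Overload meant surgical loss of the synergists gastrocnemius and soleus in a single leg, with the plantaris collected 14 days later. The labels do not say whether the control muscles came from other animals or from the unoperated leg. Per library, totals ran from 26997674 to 34254957 estimated counts. RNA integrity numbers (RIN) had medians of 8.7 in LRT overload, 8.25 in LRT control, 9 in HRT overload and 8.25 in HRT control, so RIN moved with overload. The table names no genes, so muscle markers and the rest of the protease network were not examined here. Tissue RNA was measured in bulk, so a change in the number of cells that express a gene and a change in RNA per cell cannot be told apart.

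RefSeq promoter sequences were at hand for 2 of the 5 genes, Mmp12 and Timp1, from the build GRCr8. They are shown as background, since no windows were at hand for the other members. Both human genes are known to carry a promoter site for AP-1, the Fos and Jun transcription factor. Whether AP-1 had a part in the rise on overload was not tested. The rat windows are described here by their letters alone. Each window runs from 250 bases before to 50 bases after the gene's start, 5′ to 3′ on the gene's own strand. That is chr8:12866402-12866701, plus strand, for Mmp12 and chrX:3771073-3771372, minus strand, for Timp1. Capitals mark matches to 4 motifs searched on both strands: the AP-1 consensus TGANTCA, the AP-1 variant TGAGTAA, the Ets-type PEA3 motif AGGAAG and the TATA motif TATAAA.
Mmp12: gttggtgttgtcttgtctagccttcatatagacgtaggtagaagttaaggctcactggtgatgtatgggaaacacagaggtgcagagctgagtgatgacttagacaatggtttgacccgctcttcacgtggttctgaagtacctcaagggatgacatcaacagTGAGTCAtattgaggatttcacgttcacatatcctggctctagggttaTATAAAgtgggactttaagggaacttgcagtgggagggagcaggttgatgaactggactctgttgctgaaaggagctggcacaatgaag
Timp1: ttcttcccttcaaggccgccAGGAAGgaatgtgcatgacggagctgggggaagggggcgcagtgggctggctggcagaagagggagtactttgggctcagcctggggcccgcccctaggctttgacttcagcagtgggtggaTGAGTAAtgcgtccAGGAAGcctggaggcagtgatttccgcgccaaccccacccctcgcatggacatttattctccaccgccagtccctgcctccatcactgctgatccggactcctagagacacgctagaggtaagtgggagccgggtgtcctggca
The Mmp12 window held 1 consensus AP-1 match from -87 to -81 and 1 TATA match from -39 to -34 relative to the start. The Timp1 window held the AP-1 variant from -108 to -102, and AGGAAG from -94 to -89 and from -230 to -225. Over 33469 windows of this length, 7.33% held TGANTCA, 2.9% held TGAGTAA, 34.5% held AGGAAG and 14.2% held TATAAA. No 2 matches overlapped, and a match is a run of letters, not a measured site.

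Overload went with higher levels of all 5 genes in both lines. In LRT muscle, 5 of 5 passed edgeR's quasi-likelihood test (adjusted p under 0.05) as higher and 0 as lower, where 28.9% of all tested genes were called higher and 28.3% lower. In HRT muscle it was also 5 of 5 higher and 0 lower, against 31.9% higher and 31.2% lower among all tested genes. Mmp12 passed the filter on low counts through its overloaded libraries alone, so its call as higher was favoured by that filter. Without Mmp12 the counts were 4 of 4 higher in each line. The genes were chosen with earlier results of these data known, so these counts only describe them. Without Mmp12 their median log2 fold change was 2.47 in LRT and 3.33 in HRT, while the median of all tested genes was -0.02 in both. Every overloaded library was above every control library of its line for 4 of 5 genes in LRT, where 17.3% of all tested genes showed this. In HRT it was 5 of 5, against 21.4% of all tested genes. Without Mmp12 it was 3 of 4 in LRT and 4 of 4 in HRT. Mmp9 in LRT was the gene that overlapped. Levels are in CPM, library-size-scaled counts with TMM factors, and are not corrected for gene length, so they compare libraries and not genes.

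**Figure D1:**
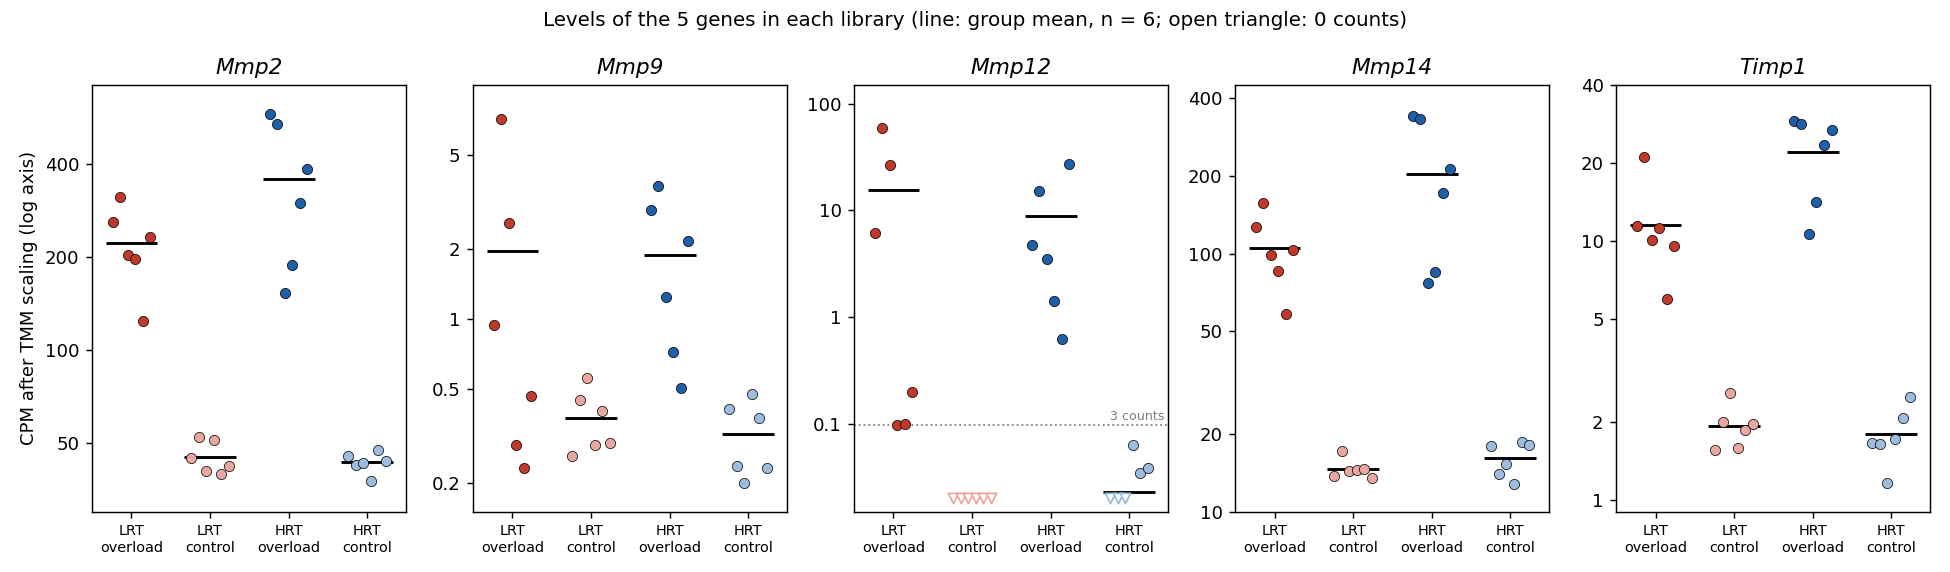
Level of each gene in every library, in CPM on log axes, for LRT overload, LRT control, HRT overload and HRT control. Filled points are libraries in order of replicate number, bars are group means (n = 6) and open triangles are libraries with 0 counts. In Mmp2, Mmp14 and Timp1 the overloaded libraries lie clear of the controls, while Mmp9 and Mmp12 spread widely after overload and 3 LRT overload libraries have 3 to 6 counts of Mmp12.

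Mmp2 encodes gelatinase A, which cuts denatured collagen and basement membrane collagen. In LRT overload it ran from 124 over a median of 218 to 313 CPM, and in LRT control from 39.8 over 43.4 to 52.2 CPM. In HRT overload it ran from 153 over 343 to 580 CPM, and in HRT control from 37.6 over 43.5 to 47.5 CPM. Both control groups were narrow and alike, and no overloaded library came down to them. The log2 fold change on overload was 2.29 ± 0.259 (SE) in LRT, a 4.90-fold rise (edgeR adjusted p = 2.05e-07). In HRT it was 3.05 ± 0.266, an 8.26-fold rise (edgeR adjusted p = 2.83e-09). By size of rise, Mmp2 stood at place 398 of 16661 tested genes in LRT and at place 260 in HRT.

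Mmp14 encodes the membrane-type enzyme that activates the Mmp2 precursor and cuts fibrillar collagen itself. In LRT overload it ran from 58.3 over a median of 101 to 157 CPM, and in LRT control from 13.5 over 14.5 to 17.2 CPM. Values in HRT overload ran from 76.6 over 192 to 342 CPM, and in HRT control from 12.8 over 16.7 to 18.6 CPM. As for Mmp2, control libraries were tightly grouped and overloaded ones lay well above them. Its log2 fold change was 2.84 ± 0.312 (SE) in LRT, 7.14-fold (edgeR adjusted p = 1.79e-07), and 3.65 ± 0.321 in HRT, 12.6-fold (edgeR adjusted p = 4.07e-09). The rise was place 192 in LRT and place 116 in HRT.

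Timp1, the inhibitor, rose together with the proteases. In LRT overload it ran from 5.95 over a median of 10.6 to 21.1 CPM, and in LRT control from 1.55 over 1.91 to 2.58 CPM. In HRT overload it ran from 10.6 over 25.1 to 28.9 CPM, and in HRT control from 1.16 over 1.69 to 2.49 CPM. The log2 fold change was 2.58 ± 0.281 (SE) in LRT, 5.99-fold (edgeR adjusted p = 1.27e-07), and 3.62 ± 0.287 in HRT, 12.3-fold (edgeR adjusted p = 6.66e-10). That was place 280 in LRT and place 125 in HRT. The Timp1 calls, like those of Mmp2 and Mmp14, held under every other setting tried and with each library left out.

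Mmp9 encodes gelatinase B, a product of neutrophils and macrophages among other cells, and its counts were low. LRT overload replicates 1 to 6 had 31, 249, 78, 9, 7 and 14 counts, and LRT control replicates 1 to 6 had 7, 13, 16, 8, 12 and 8. HRT overload replicates 1 to 6 had 111, 148, 43, 25, 17 and 80 counts, and HRT control replicates 1 to 6 had 11, 6, 6, 15, 11 and 6. In LRT, replicates 1, 2 and 3 stood above every control while replicates 4 and 6 lay within the control range in CPM and replicate 5, at 0.231 CPM, lay under the lowest control, at 0.259 CPM. In HRT every overloaded library was above every control, though replicate 5 only by 17 against 15 counts. The means were 1.94 ± 2.70 CPM in LRT overload and 0.376 ± 0.116 in LRT control (SD, n = 6 each). They were 1.87 ± 1.28 CPM in HRT overload and 0.322 ± 0.116 in HRT control (SD, n = 6 each). On the log2 scale Mmp9 was higher with overload by 2.37 ± 0.700 (SE) in LRT (edgeR adjusted p = 0.00625) and by 2.52 ± 0.713 in HRT (edgeR adjusted p = 0.00383). The LRT call rested on replicate 2: without it the estimate was 1.25 on the log2 scale (edgeR adjusted p = 0.07). With limma-voom in place of edgeR, Mmp9 missed the threshold in LRT (limma-voom adjusted p = 0.166). In HRT the call held under every other setting tried.

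Mmp12 encodes macrophage metalloelastase, which is made mainly by macrophages and cuts elastin. It was near silent in control muscle. LRT overload replicates 1 to 6 had 203, 2062, 809, 3, 3 and 6 counts, while each LRT control library had 0. HRT overload replicates 1 to 6 had 182, 612, 121, 49, 21 and 1016 counts, and HRT control replicates 1 to 6 had 0, 0, 0, 2, 1 and 1. Every overloaded library thus had more counts than any control of its line, but in LRT replicates 4, 5 and 6 did so by 3 to 6 counts. In LRT overload, 66.8% of all Mmp12 counts came from replicate 2 and 93% from replicates 2 and 3. In HRT overload, replicate 6 held 50.8%, and replicates 2 and 6 together held 81.4%. The HRT libraries covered a 43.9-fold range and the LRT libraries a 613-fold range.

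Against a floor of 3 counts per library, which is 0.107 CPM in LRT control, the LRT overload mean of 15.4 ± 23.8 CPM (SD, n = 6) was at least 145-fold higher. Without LRT overload replicate 2 it was at least 62.3-fold higher. Of the 6 LRT overload libraries, 4 exceeded 3 counts, and no library lay near the median of 3.19 CPM. The HRT overload mean was 82.4 times the same floor, and 47.7 times without replicate 6. In HRT, 2001 summed overload counts stood against 4 control counts, a ratio of 387 with an exact 95% interval of 151 to 1422 that covers counting error only. That ratio uses no floor and is not to be set against the LRT bound. HRT overload averaged 8.85 ± 10.6 CPM and HRT control 0.0227 ± 0.0269 CPM (SD, n = 6 each). edgeR gave adjusted p = 0.00168 in LRT and 0.00395 in HRT, values that only describe a gene that passed the filter where it is high. limma-voom called neither (adjusted p = 0.103 in LRT and 0.0731 in HRT). With weights for groups and libraries, limma-voom missed it in LRT (adjusted p = 0.0679) and called it in HRT (adjusted p = 0.0234).

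The next question was whether the lines differed. In control muscle the levels of LRT and HRT overlapped for each of the 5 genes. edgeR called 0 of 5, against 1.97% of all tested genes. The lowest unadjusted p among the 5 was 0.65, for Mmp14 (edgeR). Among all tested genes, 1.75% had every LRT control library above every HRT control library and 0.9% had every one below. The log2 difference, LRT over HRT, was 0.06 for Mmp2 with a 95% interval of -0.46 to 0.57. It was -0.14 for Mmp14 (interval -0.76 to 0.48) and 0.11 for Timp1 (interval -0.52 to 0.74). For Mmp9 it was 0.22, with a wide interval of -1.48 to 1.91. Differences within these intervals were not excluded. The intervals use a spread estimate shared by all 4 groups, and overloaded libraries spread more widely than controls. They therefore do not mark the smallest difference that control muscle could show.

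In overloaded muscle the LRT means of Mmp2, Mmp14 and Timp1 were lower than the HRT means, and 1 of the 5 genes passed the test as lower and 0 as higher, against 1.49% of all tested genes called lower, 1.6% called higher and 3.09% in either direction. Timp1 averaged 11.5 ± 5.08 CPM in LRT overload and 22 ± 7.78 in HRT overload (SD, n = 6 each), a log2 difference of -0.93 ± 0.246 (SE; edgeR adjusted p = 0.0427). The ranges overlapped in all 5 genes, where 0.864% of tested genes had every LRT library above and 0.696% every LRT library below the HRT ones. For Timp1 the highest LRT library, at 21.1 CPM, lay above HRT replicates 3 and 4, at 10.6 and 14.1 CPM. The call was lost with 9 of the 12 libraries left out one at a time, all but HRT replicates 3 and 4 and LRT replicate 2 (edgeR adjusted p up to 0.104). It was also lost when these 2 groups were fitted alone (edgeR adjusted p = 0.188).

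Mmp14 averaged 105 ± 33.9 CPM in LRT overload and 203 ± 116 in HRT overload (SD, n = 6 each), and the log2 difference of -0.95 ± 0.289 (SE) did not pass (edgeR adjusted p = 0.0677). Mmp2 averaged 221 ± 63.8 CPM in LRT overload and 358 ± 177 in HRT overload (log2 difference -0.69 ± 0.247, edgeR adjusted p = 0.107). No LRT overload library exceeded the highest HRT one in Mmp2, Mmp14 or Timp1, and HRT replicates 3 and 4 lay within the LRT range in all 3 genes. With RIN in the model Mmp2 and Mmp14 passed, at -0.86 for Mmp2 (edgeR adjusted p = 0.0405) and -1.13 for Mmp14 (edgeR adjusted p = 0.0288). They also passed when HRT overload replicate 3 or 4, or LRT overload replicate 2, was left out. Mmp9 and Mmp12 gave no steady direction. Mmp9 had a log2 difference of 0.06 (95% interval -1.18 to 1.29, edgeR adjusted p = 0.968) and Mmp12 of 0.80 (interval -1.54 to 3.14, edgeR adjusted p = 0.711). For Mmp12 the LRT overload mean was the higher, at 15.4 against 8.85 CPM in HRT overload, but its median was the lower, at 3.19 against 4.13 CPM.

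The responses themselves were compared as the LRT response minus the HRT response. For Timp1 the difference was -1.04 on the log2 scale (95% interval -1.85 to -0.23, edgeR adjusted p = 0.251), for Mmp14 -0.82 (interval -1.68 to 0.05, edgeR adjusted p = 0.397) and for Mmp2 -0.75 (interval -1.48 to -0.03, edgeR adjusted p = 0.354). The estimates therefore put the LRT response below the HRT response in these 3 genes, and none passed the adjustment over all genes. For Mmp9 it was -0.16 (interval -2.24 to 1.93, edgeR adjusted p = 0.962), and leaving out any of 5 single libraries turned its sign. Mmp12 cannot be placed, since its control counts are at or near 0. In all, 0 of the 5 genes passed, against 0.048% of all tested genes, and Mmp2 and Timp1 had an unadjusted p under 0.05 (0.0423 and 0.0142), as did 13.6% of all tested genes. In order of mean level, the 2 control groups came lowest for each gene and their ranges overlapped. LRT overload came next and HRT overload highest in Mmp2, Mmp14 and Timp1, and those 2 ranges overlapped as well.

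**Figure D2:**
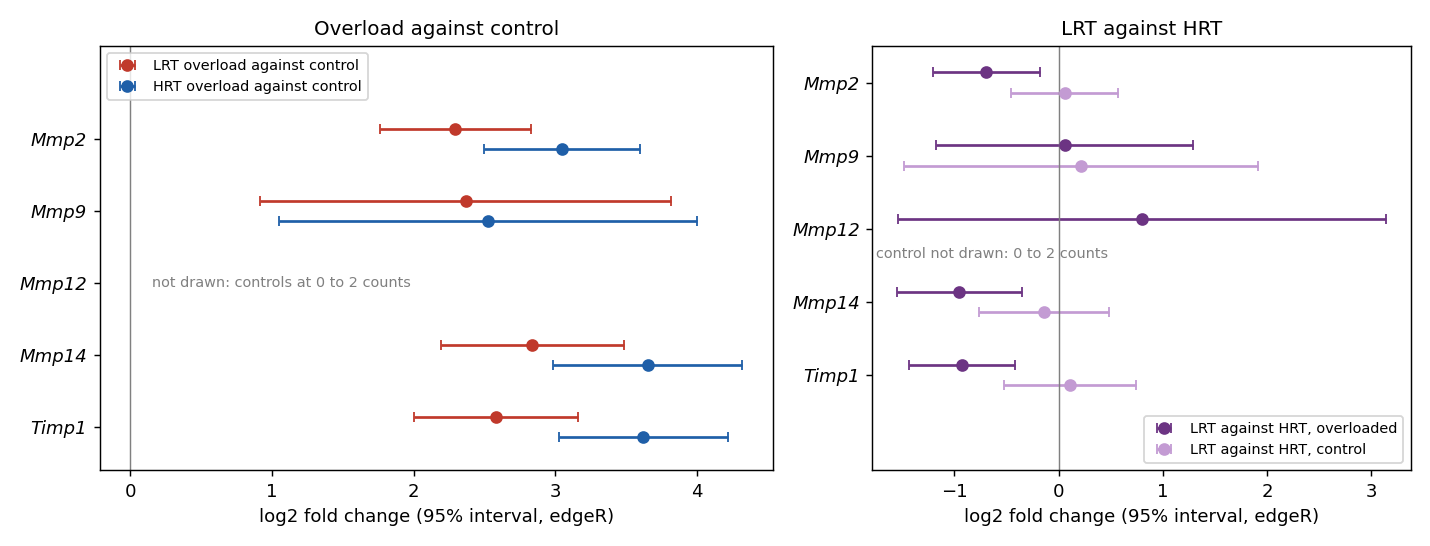
Log2 fold changes from edgeR with 95% intervals, overload against control in each line (left) and LRT against HRT in each state (right). All intervals use a spread estimate shared by the 4 groups. The rises of Mmp2, Mmp14 and Timp1 lie between 2.29 and 3.65, the Mmp9 intervals are wide, and the LRT against HRT estimates of Mmp2, Mmp14 and Timp1 lie below 0 in overloaded muscle and near 0 in control muscle.

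Libraries of overloaded muscle were spread more widely in these genes than those of control muscle. The SD of log2 CPM for Mmp2 was 0.455 in LRT overload, 0.17 in LRT control, 0.788 in HRT overload and 0.113 in HRT control. For Mmp14 it was 0.488, 0.124, 0.934 and 0.225 in the same order. The median SD over all tested genes was 0.214 in LRT overload, 0.196 in LRT control, 0.25 in HRT overload and 0.169 in HRT control. Mmp12 was among the most variable genes after overload, at an SD of 3.88 in LRT and 2.0 in HRT, at or above 99.99% and 99.7% of tested genes. Mmp9 followed with an SD of 1.80 in LRT and 1.09 in HRT. The place of Mmp12 only describes it, since Mmp12 passed the filter through its overloaded libraries. Its LRT overload replicates 4, 5 and 6 had 3, 3 and 6 counts, where log2 CPM depends on the prior count of 2.

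The same libraries were high in several genes at once. HRT overload replicates 1 and 2 led in Mmp2, Mmp14 and Timp1, and replicate 3 was lowest in each. In LRT overload, replicate 2 was highest in all 5 genes, and replicate 5 was lowest in Mmp2, Mmp9, Mmp14 and Timp1. Mmp2 and Mmp14 ranked the 6 libraries identically in both overloaded groups. Their log2 CPM correlated with Pearson's r = 0.989 in LRT and 0.996 in HRT (exact permutation p = 0.00139, the smallest possible, and adjusted p = 0.00694 over 20 relations). Spearman's rho was 1 in both (exact permutation p = 0.00278, adjusted p = 0.0139), and without the 2 libraries farthest from the median of Mmp2 r was 0.947 in LRT and 0.995 in HRT.

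Timp1 followed Mmp2 in HRT overload (r = 0.956, exact permutation p = 0.00139, adjusted p = 0.00694; rho = 1, exact permutation p = 0.00278, adjusted p = 0.0139; r = 0.962 without the 2 farthest libraries). In LRT overload r was 0.904 (exact permutation p = 0.0431, adjusted p = 0.108; rho = 0.771, exact permutation p = 0.103, adjusted p = 0.17). It fell to 0.106 without the 2 farthest libraries, so the LRT value leaned on those 2. Leaving them out also narrows the range of Mmp2, which by itself can lower r. Mmp14 and Timp1 gave nearly the same picture, with r = 0.953 in HRT (exact permutation p = 0.00139, adjusted p = 0.00694; rho = 1, exact permutation p = 0.00278, adjusted p = 0.0139; r = 0.932 without the 2 farthest). In LRT r was 0.907 (exact permutation p = 0.0347, adjusted p = 0.108; rho = 0.771, exact permutation p = 0.103, adjusted p = 0.17; r = 0.133 without the 2 farthest).

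Of the other 4 genes, Mmp9 had the highest r with Mmp12 in both lines, a ranking that was not tested. In LRT overload r was 0.961 (exact permutation p = 0.00278, adjusted p = 0.0111; rho = 0.943, exact permutation p = 0.0167, adjusted p = 0.0667; r = 0.941 without the 2 farthest). In HRT overload r was 0.856 (exact permutation p = 0.0389, adjusted p = 0.108; rho = 0.829, exact permutation p = 0.0583, adjusted p = 0.146; r = 0.683 without the 2 farthest). HRT overload replicate 1 shows how the pairs part: it had the highest Mmp2 of any library, at 580 CPM, but only 4.77 CPM of Mmp12. HRT overload replicate 6 had 386 CPM of Mmp2 and 27.5 CPM of Mmp12. Of the 20 relations, 5 passed the adjustment by Pearson's r: Mmp2 with Mmp14 in both lines, Mmp2 with Timp1 and Mmp14 with Timp1 in HRT, and Mmp9 with Mmp12 in LRT.

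**Figure D3:**
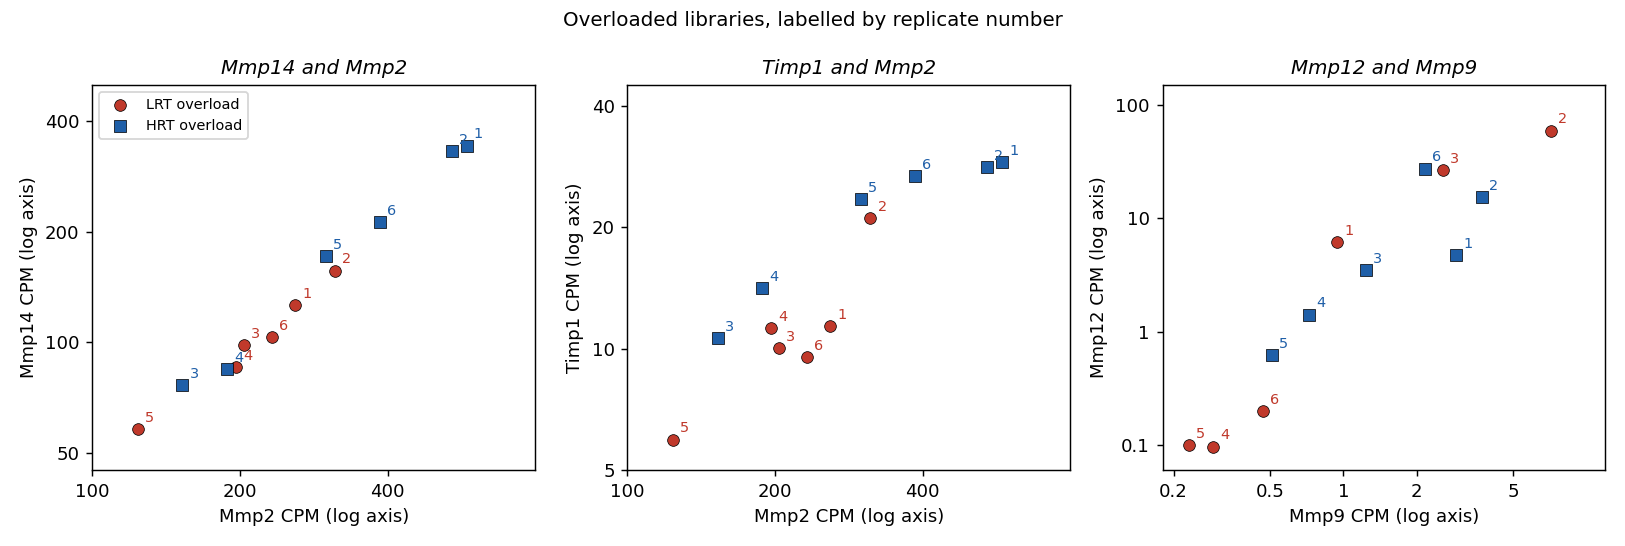
Levels in the 12 overloaded libraries, in CPM on log axes, for Mmp14 against Mmp2, Timp1 against Mmp2 and Mmp12 against Mmp9. Circles are LRT overload and squares HRT overload, each with its replicate number. Mmp14 follows Mmp2 closely in both lines (r = 0.989 and 0.996), and LRT replicates 4, 5 and 6 sit at the low end of both Mmp9 and Mmp12.

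Across all 24 libraries, with each group's mean taken out, Mmp14 was the gene whose log2 CPM followed Mmp2 most closely of 16660 others (r = 0.976), and Mmp2 was likewise first for Mmp14. Mmp9 was first of 16660 for Mmp12 (r = 0.907), and Mmp12 was the second for Mmp9. The gene ahead of it was ENSRNOG00000010210 (r = 0.917), which was also the second for Mmp12 (r = 0.904). The Mmp12 values rest mostly on overloaded libraries, where alone it passed the filter. Its SD of log2 CPM was 0 in LRT control and 0.436 in HRT control, against 3.88 in LRT overload and 2.0 in HRT overload. The closest to Timp1 was ENSRNOG00000022507 (r = 0.932), with Mmp14 at place 135 (r = 0.817) and Mmp2 at place 277 (r = 0.775). The table gives neither of these IDs a name. These values describe the libraries, which share a tissue and a scaling.

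A ratio of 2 genes within a library is free of any scaling between libraries. The log2 ratio of Mmp2 to Timp1 counts had a median of 4.36 in LRT overload (3.89 to 4.60) and 4.55 in LRT control (3.96 to 5.0). In HRT overload it was 3.85 (3.67 to 4.32), and in HRT control 4.59 (4.12 to 5.19). The mean ratio was thus lower by 0.25 in LRT and by 0.67 in HRT after overload, with overlapping libraries in both lines. For Mmp14 to Timp1 the means were 3.22 in LRT overload and 2.94 in LRT control, and 3.07 in HRT overload and 3.18 in HRT control, again with overlapping libraries. For Mmp9 to Timp1 the means were -3.53 in LRT overload and -2.33 in LRT control, and -3.78 in HRT overload and -2.44 in HRT control. The mean Mmp9 ratio was thus lower with overload in both lines, although LRT overload replicates 2 and 3, at -1.56 and -1.96, stood above every LRT control library. Libraries overlapped in HRT too. HRT overload replicates 1, 2 and 3, at -3.31, -2.92 and -3.09, stood above HRT control replicate 6, at -3.33. For Mmp12 to Timp1 the means were -2.63 in LRT overload and -6.75 in LRT control, and -2.26 in HRT overload and -5.71 in HRT control. The ratio was thus higher with overload, but the control values of Mmp12 are set largely by the pseudocount of 0.5, and libraries overlapped in both lines.

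**Figure D4:**
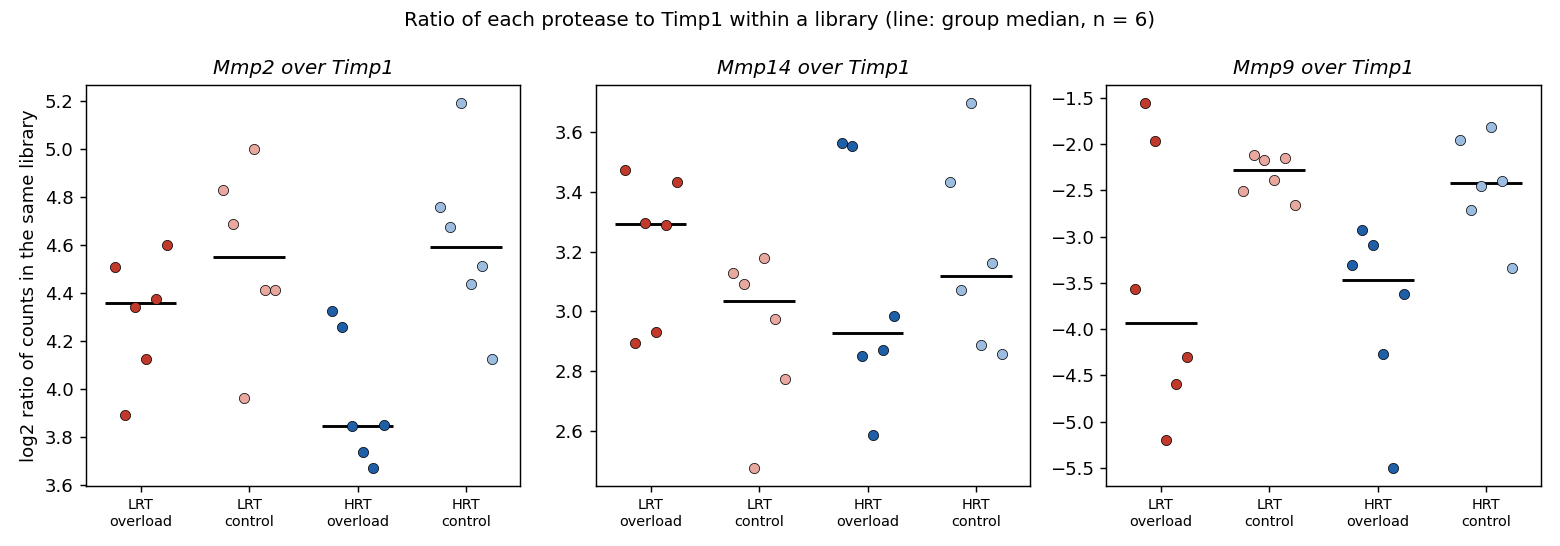
Log2 ratio of Mmp2, Mmp14 and Mmp9 counts to Timp1 counts in the same library, with a pseudocount of 0.5, for LRT overload, LRT control, HRT overload and HRT control. Points are libraries and bars group medians (n = 6). The Mmp2 ratio has its lowest median in HRT overload (3.85), the Mmp14 ratios overlap throughout, and 4 of 6 LRT overload libraries lie below the LRT controls in the Mmp9 ratio.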

How the data were processed

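Plantaris RNA from 24 rat muscles was made into Illumina TruSeq libraries from total RNA, per the labels' protocols. The authors deposited estimated counts per Ensembl gene ID, not normalized. The tool Salmon 0.9.1 and, as genome builds, Rnor_6.0 and rn6 are listed, per the submitters' processing notes. Annotation and settings: not given in the sources used here. Reads shared by similar genes may have been divided between them. Samples were grouped by labelled line and surgery. Nothing says that replicates came from separate animals, so a p-value reflects only how far these samples spread. No pair of libraries within a group was a duplicate (lowest chi-square per degree of freedom 13.9 over 60 pairs).

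Counts were rounded, filtered with edgeR's filterByExpr (minimum count 10, minimum total 15), scaled by TMM and fitted together in a robust quasi-likelihood model, each group having its own coefficient (R 4.3.3, edgeR 4.0.16). For each gene the 4 groups shared a spread estimate, although overloaded libraries spread more widely. Adjustment was Benjamini-Hochberg over 16661 genes with a threshold of 0.05. Tested genes held 99.95% of counts. Each standard error is the size of the log2 fold change divided by the root of its F statistic, and 95% intervals use the matching t quantile. Log2 CPM used a prior count of 2. Correlations within groups of 6 used exact permutation over all pairings, two-sided. The model was tried on simulated data with equal dispersion in every group. That trial does not cover the wider spread of overloaded libraries.

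Alternatives were DESeq2 1.42.0, its size factors, library totals, limma-voom (limma 3.58.1), a filter of 1 CPM in 6 libraries or none, RIN as a covariate, a replicate block (alone or with RIN), fits of only the compared groups, and fits leaving out single libraries. Weighted limma-voom was added after the data had been seen. The filter stayed as in the main model elsewhere.

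The members, lists and tests were chosen with earlier results of these data known. All 5 members were to be named, with the 3 genes closest to each in profile and the most changed genes of fixed lists. The table of names used here (GRCr8, 47357 genes) matched 0 IDs. The lists, among them other proteases and cell type markers, were therefore not tested, the names of the 5 members come from a fixed pairing with their IDs that could not be checked here, and 2 further IDs are printed. Plots used matplotlib 3.10.9 in Python 3.11.15.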

Additional observations from a re-analysis of the deposited data

Results flagged for a closer look

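Among 19 sets of 6 libraries with varying counts (5 genes in 4 groups, less Mmp12 in LRT control), 1 library stood apart from the rest of its group by Dixon's test on log2 CPM. LRT control replicate 2 had 17.2 CPM of Mmp14, while the other LRT control libraries ran from 13.5 to 14.7 CPM. Its gap was 0.651 of the group's range, against a critical value of 0.625. Chance alone flags about 1 in 20 such sets. No member passed the test of a difference between the responses of the lines.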

How the results depend on the processing

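In each line, 23 refits (11 other settings and 12 with a library left out) gave 115 values for the 5 genes, of which 110 in LRT and 114 in HRT kept the direction and call of the rise on overload. The exceptions in LRT were Mmp9 under limma-voom (1.34, adjusted p = 0.166), under limma-voom with weights (1.34, adjusted p = 0.124) and without LRT overload replicate 2, and Mmp12 under both (6.71 and 6.72, adjusted p = 0.103 and 0.0679). These left 3 members called in LRT under either form of limma-voom. In HRT the exception was Mmp12 under limma-voom (7.06, adjusted p = 0.0731). With single libraries left out, the LRT log2 fold change of Mmp9 ran from 1.25 to 2.60 and 4 to 5 members were called. Among all tested genes, 8816 to 9579 were called in those LRT fits, in either direction. Scaling by library totals moved the median of all genes by 0.245 in LRT and 0.295 in HRT, and the 5 members stayed higher.

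Between lines in overloaded muscle, results moved more. Timp1 lost its call with no filter (-0.93, adjusted p = 0.0757), with the compared groups alone (-0.92, adjusted p = 0.188) and with weighted limma-voom (-0.93, adjusted p = 0.0599), and ran from -1.19 to -0.80 with single libraries left out. Mmp2 was called with library totals (-0.87) and with RIN (-0.86), and ran from -0.85 to -0.50 with libraries left out. Mmp14 was called with library totals (-1.14), DESeq2 (-0.94) and RIN (-1.13), and ran from -1.12 to -0.74. Mmp9 turned to -0.064 with library totals, -0.68 with limma-voom, -0.68 with weights and -0.59 with RIN, and ran from -1.06 to 0.37 with libraries left out. Mmp12 turned to -1.27 with limma-voom, -1.27 with weights and -0.017 with RIN, and ran from -0.42 to 1.58. The members called numbered 3 with library totals, 2 with DESeq2, 0 with no filter, 3 with RIN, 0 with the compared groups alone and 0 with weights, and 0 to 3 with libraries left out. Over all tested genes, 514 were called in the main model. In the same order of settings that became 2153, 1093, 307, 785, 117 and 158, and 171 to 1652 with libraries left out. The member counts thus rose and fell largely with the totals. The cause of these shifts was not tested.

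The replicate block gave no change of call for a member. Same-numbered libraries correlated between -0.127 and 0.367 across groups, and no pair of groups had every number over 0.1. Differently numbered libraries were not compared, and low correlations cannot exclude that same-numbered muscles came from the same animal. The main model was unpaired. In overloaded muscle the block turned Mmp9 to -0.35 and Mmp12 to -0.038, and with RIN to -0.70 and -0.40. With the replicate block, 1 gene of all passed for the difference between responses, and 1 with block and RIN, against 8 in the main model, and 289 genes passed between lines in overloaded muscle with block and RIN.

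Between responses, the fitted value of Mmp12, 3.58, became -0.35 with limma-voom and -0.34 with weights, and Mmp9 ran from -1.28 to 0.16 with libraries left out. In control muscle Mmp2 turned to -0.032 with library totals. Counts over all genes moved by more than 1.5 times as follows. For the difference between responses, 8 became 1 with DESeq2 size factors, 137 with DESeq2, 2 with limma-voom, 5 with no filter, 2 with RIN, 1 with weights, and 1 to 25 with libraries left out. In control muscle, 328 became 619 with DESeq2, 206 with no filter, 793 with weights, and 153 to 497 with libraries left out. In overloaded muscle, 514 became 2153 with library totals, 1093 with DESeq2, 307 with no filter, 785 with RIN, 117 with the compared groups alone, 158 with weights, and 171 to 1652 with libraries left out.

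The LRT control mean of Mmp14 was 13 CPM with library totals, against 14.7 CPM. With a pseudocount of 3, median log2 ratios to Timp1 became -2.06 for Mmp9 in LRT control, against -2.28. For Mmp12 they became -4.25 in LRT control, against -6.77, and -3.94 in HRT control, against -5.80. The 20 correlations kept their sign and call with library totals. Depth limits Mmp12 and Mmp9 most, with controls at 0 to 2 and 6 to 16 counts.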

Other observations

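RIN and Mmp2 were set side by side in the overloaded libraries. In HRT overload, replicates 1 and 2, the highest in Mmp2, both had a RIN of 8.6, replicate 6 had 9.2, replicate 5 had 9.1, replicate 4 had 8.9, and replicate 3, the lowest in Mmp2, had 9.4. In LRT overload, replicate 2, the highest in Mmp2, had a RIN of 8.6, and replicates 1 and 6, the next highest, both had 8.9. Replicate 3 had the lowest RIN, 8.2, with 204 CPM of Mmp2. Replicate 4 had 8.7, as had replicate 5, the lowest in Mmp2. Among HRT overload replicates 6, 5 and 4, at 386, 300 and 189 CPM of Mmp2, RIN fell as Mmp2 fell. RIN and Mmp2 thus showed no steady order in either line. The part of RIN in these differences was not tested beyond the model with RIN as a covariate.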
